A study of Mus musculus with 6 samples.

Results

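Collagen is made fit for the extracellular matrix by 3 enzyme families whose transcripts are described here. They are the prolyl 4-hydroxylase alpha subunits P4ha1 and P4ha2, the lysyl hydroxylases Plod1, Plod2 and Plod3, and the lysyl oxidases Lox, Loxl1, Loxl2, Loxl3 and Loxl4. These 10 genes were found by symbol among 24214 RefSeq features counted in each sample. The samples were of 393P, an epithelial murine lung adenocarcinoma cell line labelled as C57BL/6 and KP, grown in RPMI-1640 with 10% serum. There were 3 samples transfected with a ZEB1 expression vector (393P_ZEB1) and 3 with the empty vector (393P_vector). ZEB1 is a transcription factor that represses epithelial genes and drives the epithelial-to-mesenchymal transition (EMT). All 6 samples are derivatives of 1 cell line, and the labels state neither the species of the ZEB1 cDNA nor whether replicates were transfected separately, so p-values measure the spread between these samples, which may be technical.

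In the endoplasmic reticulum, prolyl 4-hydroxylase converts proline to hydroxyproline, which holds the collagen triple helix together at body temperature. Lysyl hydroxylases convert lysine to hydroxylysine, a site for sugar attachment and, in the telopeptides at the ends of the chains, the start of stable hydroxylysine aldehyde-derived cross-links. Both families use iron, oxygen, 2-oxoglutarate and ascorbate. Outside the cell, the copper-dependent lysyl oxidases turn lysine and hydroxylysine into aldehydes that condense into cross-links in collagen and elastin. In lung cancer these enzymes are known for stiffening the stroma around tumor cells.

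Of the 9 enzymes with enough reads to test, none was called higher in 393P_ZEB1 cells and 4 were called lower. Loxl1 fell 9.52-fold, Loxl4 fell 3.22-fold, Plod2 fell 1.56-fold and P4ha1 fell 1.38-fold. Loxl2, Loxl3, Plod1, Plod3 and P4ha2 did not pass the threshold, and Lox had too few reads to test. Across all 13892 tested features 37.6% were called, with 18.3% higher and 19.3% lower, so 4 of 9 lower calls stand against a background of 19.3% and 0 higher calls against 18.3%. At an unadjusted p under 0.05 edgeR also gave 0 higher, as did the calls of DESeq2 and limma voom, and the counts are a description of 9 genes. Loxl1, with 4 to 7 counts in the 393P_ZEB1 samples, passed the filter on low counts through the 393P_vector samples where it was higher. With at least 10 counts required in every sample it dropped out, leaving 3 lower calls, in a fit that called 2215 of all features lower. The median log2 fold change of the 9 enzymes was -0.24, against -0.02 over all tested features.

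Levels are given as CPM, read counts relative to the TMM-normalized library size, with the values of replicates 1, 2 and 3 in that order, and differences as log2 fold changes of 393P_ZEB1 over 393P_vector. They were tested by edgeR's quasi-likelihood test, with p-values adjusted over all tested features by the Benjamini-Hochberg method and a threshold of 0.05. Library totals ranged from 54442450 to 79158012 counts, where 3 counts, the smallest number taken as detected, equal 0.0379 to 0.0551 CPM. Of the replicates, 393P_vector replicate 3 stood apart: 8.71% and 9.6% of tested features differed at least 2-fold between it and the other 393P_vector replicates, compared with 2.41% between those and 3.11% to 3.43% between 393P_ZEB1 replicates. For the enzymes, values that moved by over 1.5 times or changed call without that sample are also given without it. Among these, Plod3 had a log2 fold change of 0.00389 with that sample and -0.00507 without it. Single genes outside the 10 enzymes are given with all 6 samples only, and how far they rest on that sample was not tested. Zeb1 was at 21.5 ± 0.435 CPM (SD, n = 3) in 393P_vector and 51.7 ± 3.01 CPM (SD, n = 3) in 393P_ZEB1 cells (log2 fold change 1.26, standard error 0.10, edgeR adjusted p = 6.06e-05). Zeb1 and the mesenchymal marker Cdh2 lie on chromosome 18, whose tested genes had a median log2 fold change of 0.64. The part of that difference in their rise was not tested. Epithelial markers fell in 4 of 5 genes (summed level 4370 to 5000 CPM in 393P_vector and 2750 to 3040 CPM in 393P_ZEB1 samples) and mesenchymal markers rose in 5 of 5, Zeb1 among them. The 4 lung lineage markers Nkx2-1, Sftpc, Sftpb and Scgb1a1 summed to no more than 0.144 CPM in any sample, so the labelled lung origin is not visible in them. Fibroblast markers summed to between 2.53 and 3.64 CPM over 8 genes, of which Col3a1 and Pdgfrb rose (13.4-fold and 2.27-fold), Pdgfra fell 4.02-fold, and Dcn and Lum were at no more than 0.072 CPM. Leukocyte markers (6 genes) summed to 2.07 to 4.31 CPM in 393P_vector and 1.42 to 1.72 CPM in 393P_ZEB1 samples, with Csf1r called lower by 3.54-fold, Cd68 at up to 3.08 CPM and Lyz2 at no more than 0.0187 CPM. Endothelial markers (4 genes) summed to 2.26 to 2.46 CPM and 0.63 to 0.868 CPM, with Kdr called lower. The part of these in the results was not tested.

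Plod3 was the most abundant of the enzymes in both lines, and P4ha1 came next. Per kilobase of exon, Plod3 was at 45.7 ± 1.63 CPM (SD, n = 3) in 393P_vector and 45.8 ± 4.72 CPM (SD, n = 3) in 393P_ZEB1 cells. P4ha1 was at 37.1 ± 0.467 and 27.0 ± 1.06 CPM per kilobase (SD, n = 3). In 393P_vector cells Plod2 followed at 22.7 ± 2.56 CPM per kilobase (SD, n = 3), and the samples of the next 4 genes, P4ha2, Plod1, Loxl4 and Loxl2, overlapped with those of their neighbours in the order. In 393P_ZEB1 cells Plod1 followed at 16.9 ± 0.757 CPM per kilobase (SD, n = 3), above Plod2 at 14.6 ± 1.03 (SD, n = 3) in every sample, while Plod2, P4ha2 and Loxl2 overlapped from neighbour to neighbour. Loxl4 moved from a level near that of Loxl2 to 3.89 ± 1.18 CPM per kilobase (SD, n = 3), below every Loxl2 sample. Loxl3 was at 1.57 ± 0.455 and 1.74 ± 0.24 CPM per kilobase (SD, n = 3), and Loxl1 and Lox were the least abundant, at no more than 0.281 CPM per kilobase in any sample. All exons counted for Plod1, Plod2, Plod3 and P4ha1 had more than 10 reads in every sample, whereas no exon of Lox did in any sample.

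**Figure D1:**
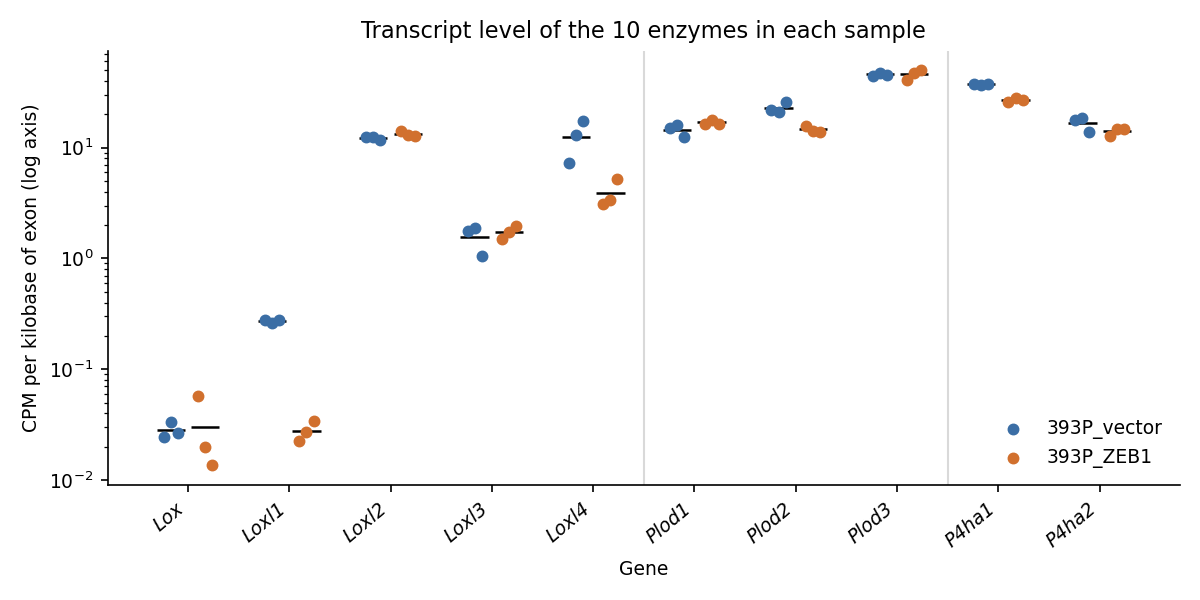
Transcript level of each enzyme in CPM per kilobase of exon on a log axis, with 1 point per sample (blue, 393P_vector; orange, 393P_ZEB1) and a black bar at the mean of 3 samples. The points of Loxl1, Loxl4, Plod2 and P4ha1 are lower in all 393P_ZEB1 samples, and Plod3 is the most abundant in both groups.

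Prolyl 4-hydroxylase is a tetramer of catalytic alpha subunits and of beta subunits, and P4ha1 and P4ha2 encode alternative alpha subunits. P4ha1, on chromosome 10 from 59323296 to 59373304 (plus strand, GRCm38), encodes the main alpha subunit of most cells. It was at 150, 148 and 151 CPM in the vector samples and at 105, 113 and 108 CPM in the ZEB1 samples. The groups did not overlap, and the gap was wide beside the spread of either group. The log2 fold change was -0.46 (standard error 0.09, edgeR adjusted p = 0.0053). Genes of chromosome 10 as a whole were lower in 393P_ZEB1 cells, with a median log2 fold change of -0.29 over 675 other tested genes, and the 20 tested genes nearest to P4ha1 had a median of -0.30. The difference left for P4ha1 after subtracting these medians was -0.17 and -0.16, which has no test.

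P4ha2, on chromosome 11 from 54100924 to 54131667 (plus strand), was at 41.5, 42.8 and 32.1 CPM in the vector samples and at 29.7, 34.5 and 34.0 CPM in the ZEB1 samples. The groups overlapped through 393P_vector replicate 3 alone. The log2 fold change was -0.24 (standard error 0.14, edgeR adjusted p = 0.221). Without 393P_vector replicate 3 it was -0.36 and passed the threshold (edgeR adjusted p = 0.00878), which made 5 of the 9 enzymes lower, in a fit that called 26.8% of all tested features lower. Without 393P_vector replicate 2 it was -0.16. Genes of chromosome 11 had a median log2 fold change of 0.27 over 1155 other tested genes, in the direction opposite to P4ha2, and the 20 nearest had a median of 0.42. As the share of summed P4ha1 and P4ha2 transcripts per kilobase, P4ha1 was 69.1 ± 3.55% (SD, n = 3) and 65.7 ± 1.19% (SD, n = 3), with overlapping samples (exact permutation p = 0.2, two-sided). The difference of -3.37 points was -1.34 points without 393P_vector replicate 3.

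A further alpha subunit gene, P4ha3, is not among the 10 and moved the other way. It was at 1.93, 2.35 and 2.07 CPM in the vector samples and at 15.1, 15.5 and 16.7 CPM in the ZEB1 samples. Its log2 fold change of 2.90 (standard error 0.15, edgeR adjusted p = 5.42e-06) is a 7.47-fold rise. Counted with P4ha1 and P4ha2 per kilobase, P4ha3 was 1.65 ± 0.16% (SD, n = 3) of alpha subunit transcripts in 393P_vector cells and 14.1 ± 0.665% (SD, n = 3) in 393P_ZEB1 cells. The sum of P4ha1 and P4ha2 was lower in every 393P_ZEB1 sample by 0.39 on average on the log2 scale (exact permutation p = 0.1, two-sided, the smallest that 3 samples against 3 allow), a gap that narrowed to 0.20 with P4ha3 added. P4hb, which encodes the beta subunit (protein disulfide isomerase), was at 1044 ± 164 and 1212 ± 8.5 CPM (SD, n = 3) and did not pass the threshold (log2 fold change 0.22, standard error 0.14, edgeR adjusted p = 0.249).

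Plod2, on chromosome 9 from 92542223 to 92608427 (plus strand), encodes the lysyl hydroxylase that acts on telopeptide lysines and so sets the type of cross-link. It was at 79.9, 77.0 and 94.7 CPM in the vector samples and at 58.2, 52.3 and 51.0 CPM in the ZEB1 samples. All 393P_ZEB1 samples were the lower ones, and the highest 393P_vector value was that of replicate 3. The log2 fold change was -0.64 (standard error 0.12, edgeR adjusted p = 0.00447) and without 393P_vector replicate 3 it was -0.54 (edgeR adjusted p = 0.000393). The surrounding genes did not share the change: the median log2 fold change was -0.14 over 771 other tested genes of chromosome 9 and 0.18 over the 20 nearest. The 2 RefSeq isoforms of Plod2, which differ by an alternative exon, were counted together.

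Plod1, on chromosome 4 from 147909753 to 147936776 (minus strand), encodes an enzyme that hydroxylates lysines within the helix. Its levels were 48.9, 51.5 and 40.2 CPM in the vector samples and 53.0, 57.4 and 53.3 CPM in the ZEB1 samples. The 393P_ZEB1 samples were all above the 393P_vector samples by a margin smaller than the spread of the latter, and the log2 fold change of 0.22 did not pass the threshold (standard error 0.12, edgeR adjusted p = 0.203). Without 393P_vector replicate 3 it was 0.12 (edgeR adjusted p = 0.255). Plod3, on chromosome 5 from 136987019 to 136996646 (plus strand), encodes an enzyme that also transfers galactose and glucose to hydroxylysine. Its levels were 145, 155 and 147 CPM in the vector samples and 132, 154 and 162 CPM in the ZEB1 samples. The samples of Plod3 were interleaved (log2 fold change 0.00, standard error 0.11, edgeR adjusted p = 0.983). In the annotation, 529 of its 4519 exonic bases are shared with Znhit1 on the other strand, and the counting is not stated to use strand, so reads from there cannot be assigned. Znhit1 was at 34.1 ± 1.33 CPM (SD, n = 3) in 393P_vector and 42.9 ± 3.57 CPM (SD, n = 3) in 393P_ZEB1 cells. It was called higher (log2 fold change 0.33, standard error 0.11, edgeR adjusted p = 0.0474), and its part in the Plod3 counts was not tested.

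Within the PLOD family the make-up differed more than the sum. The summed level was 82.9 ± 1.59 CPM per kilobase (SD, n = 3) in 393P_vector and 77.2 ± 3.99 (SD, n = 3) in 393P_ZEB1 cells, a log2 difference of -0.10 with no overlap (exact permutation p = 0.1, two-sided) that was -0.06 without 393P_ZEB1 replicate 1. The share of Plod2 was 26.7%, 24.8% and 30.8% in the vector samples and 21.7%, 17.9% and 17.3% in the ZEB1 samples. The share of Plod1 was 17.5 ± 2.2% (SD, n = 3) and 21.9 ± 1.08% (SD, n = 3), so that Plod1 exceeded Plod2 in each 393P_ZEB1 sample and in no 393P_vector sample. The samples did not overlap for the share of Plod2 or Plod1 (exact permutation p = 0.1 for each, two-sided, the smallest possible), and they did for Plod3 (exact permutation p = 0.2, two-sided), whose share differed by 4.08 points, or 2.63 points without 393P_ZEB1 replicate 3.

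Among the lysyl oxidases, Loxl1, Loxl4 and Loxl2 had distinct patterns. Loxl1, on chromosome 9 from 58287723 to 58313212 (minus strand), encodes the oxidase known for elastic fibers. It had 53, 51 and 77 counts in the vector samples and 4, 5 and 7 counts in the ZEB1 samples, or 0.936, 0.867 and 0.927 CPM against 0.0748, 0.0900 and 0.115 CPM. The gene was scarce in both lines and just above the detection floor in 393P_ZEB1 cells. Its log2 fold change was -3.25 (standard error 0.28, edgeR adjusted p = 8.14e-05), and 2.45% of tested features had a lower value. Its 20 nearest tested genes had a median log2 fold change of 0.30.

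Loxl4, on chromosome 19 from 42592279 to 42612806 (minus strand), was the abundant lysyl oxidase that fell. It was at 39.1, 71.2 and 93.9 CPM in the vector samples and at 16.7, 18.2 and 28.5 CPM in the ZEB1 samples. The groups did not overlap, but the spread within each was wide. Between 393P_vector replicates 1 and 2 Loxl4 differed 1.82-fold, and 3.56% of tested features differed more. Between 393P_ZEB1 replicates 1 and 3 it differed 1.71-fold, and 6.27% differed more. The log2 fold change was -1.69 (standard error 0.34, edgeR adjusted p = 0.00622), and without 393P_vector replicate 3 it was -1.38 (edgeR adjusted p = 0.0106). The chromosome median was -0.02 over 498 other tested genes.

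Loxl2, on chromosome 14 from 69609476 to 69695834 (plus strand), encodes an oxidase that deaminates lysines of collagen IV. It was at 64.4, 64.5 and 60.2 CPM in the vector samples and at 73.5, 66.8 and 66.1 CPM in the ZEB1 samples. The 393P_ZEB1 samples were all above the others by a small margin, and the log2 fold change of 0.13 did not pass the threshold (standard error 0.10, edgeR adjusted p = 0.352). It was 0.08 without 393P_ZEB1 replicate 1. Its surroundings were lower in 393P_ZEB1 cells, with a median of -0.26 over 466 other tested genes of chromosome 14 and -0.70 over the 20 nearest, so that Loxl2 was higher than these by 0.39 and 0.83. Loxl3, on chromosome 6 from 83034224 to 83052564 (plus strand), encodes a related oxidase with scavenger receptor domains. It was at 7.17, 7.63 and 4.25 CPM in the vector samples and at 6.04, 7.02 and 7.98 CPM in the ZEB1 samples. The samples of Loxl3 overlapped, and the sign of the log2 fold change rested on 393P_vector replicate 3, being 0.15 with that sample and -0.08 without it (edgeR adjusted p = 0.669 and 0.686). Of its 4603 annotated exonic bases, 535 are shared with Htra2 on the other strand, and Htra2 was more abundant at 88.0 ± 13.1 CPM (SD, n = 3) in 393P_vector and 89.8 ± 7.36 CPM (SD, n = 3) in 393P_ZEB1 cells.

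Lox, on chromosome 18 from 52517238 to 52529708 (minus strand), encodes the founding member of the family. It had 5, 7 and 8 counts in the vector samples and 11, 4 and 3 counts in the ZEB1 samples, close to the floor of 3 counts. The low-count filter left it out of the test, and a difference was not detectable at this depth. With no filter its log2 fold change was 0.08 (standard error 0.58, edgeR adjusted p = 0.954). The other tested genes of chromosome 18 had a median log2 fold change of 0.64.

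The make-up of the lysyl oxidase transcripts shifted from a mixture of Loxl2 and Loxl4 toward Loxl2. The summed level was 26.6 ± 4.4 CPM per kilobase (SD, n = 3) in 393P_vector and 19.0 ± 1.0 (SD, n = 3) in 393P_ZEB1 cells, lower in each 393P_ZEB1 sample (exact permutation p = 0.1, two-sided). Loxl2 made up 57.2%, 44.9% and 38.4% of the sum in the vector samples and 75.4%, 71.5% and 63.8% in the ZEB1 samples. Loxl4 made up 33.2%, 47.2% and 57.1% in the vector samples and 16.3%, 18.6% and 26.1% in the ZEB1 samples. Neither share overlapped between the groups (exact permutation p = 0.1 for each, two-sided, the smallest possible). Loxl4 exceeded Loxl2 in 393P_vector replicates 2 and 3 and in no other sample. Loxl3 took 6.15 ± 2.42% (SD, n = 3) and 9.13 ± 1.05% (SD, n = 3), a difference of 2.98 points that was 1.64 points without 393P_vector replicate 3, while Loxl1 took no more than 1.29% and Lox no more than 0.303% in any sample.

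**Figure D2:**
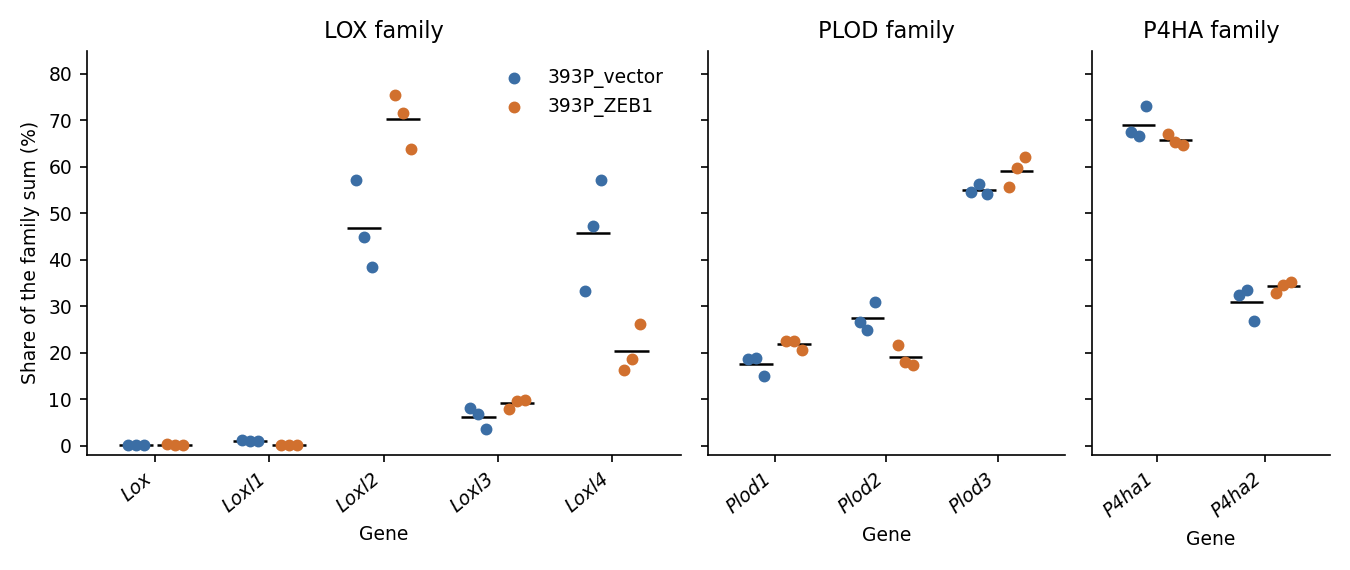
Share of each enzyme in the summed CPM per kilobase of its family, in percent, with 1 point per sample (blue, 393P_vector; orange, 393P_ZEB1) and a black bar at the mean of 3 samples. The share of Loxl4 goes from 45.8% to 20.3% on average and that of Loxl2 from 46.9% to 70.2%, while the share of Plod2 goes from 27.4% to 19.0%.

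Groups did not overlap for 6 of the 9 tested enzymes, the 4 that fell and also Loxl2 and Plod1, against a background of 52.8% of tested features in either direction. The 4 that were lower in every 393P_ZEB1 sample stand beside 26.5% of tested features with that pattern. Whole chromosomes differed between the lines, from a median log2 fold change of -0.43 on chromosome 17 to 0.64 on chromosome 18 among the autosomes, and an effect of ZEB1 on an enzyme cannot be told apart from such a difference by the p-value. The 6 tested genes of chromosome Y had a median of -6.89. The cause of these differences between the lines was not tested. Relative to the 20 nearest tested genes the differences were -3.55 for Loxl1, -1.82 for Loxl4, -0.82 for Plod2, -0.66 for P4ha2 and -0.16 for P4ha1. As these are bulk samples, a change in every cell and a change in the share of cells that express an enzyme cannot be told apart either.

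**Figure D3:**
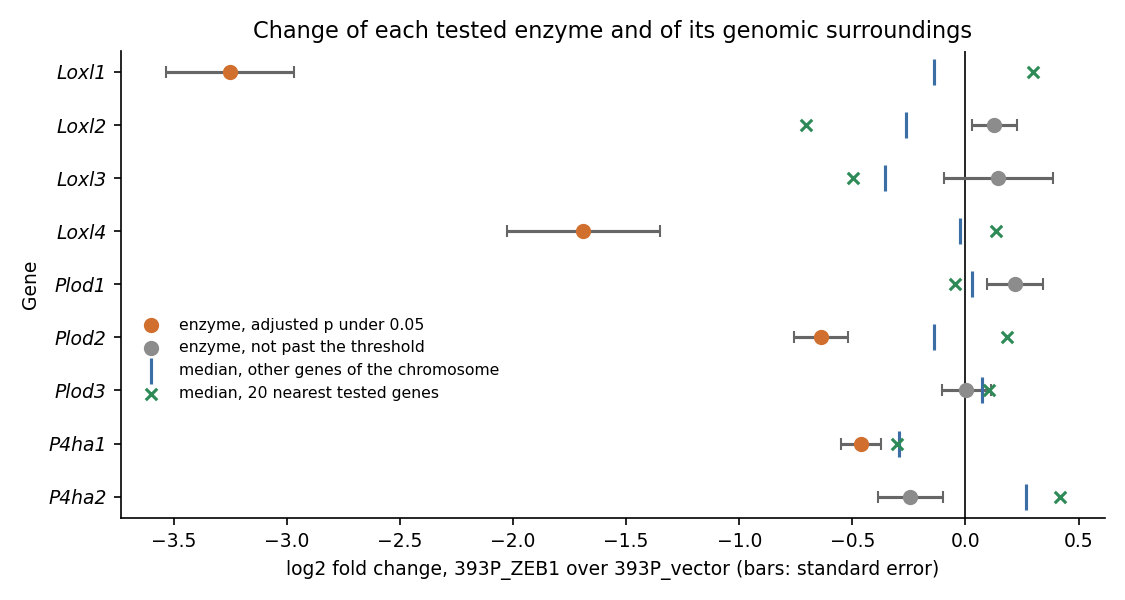
The log2 fold change of each tested enzyme (circles; bars, standard error; orange, adjusted p under 0.05; grey, not past the threshold), with the median of the other tested genes of its chromosome (blue bars) and of its 20 nearest tested genes (green crosses). Loxl1, Loxl4, Plod2 and also P4ha2, which was not called, lie to the left of both medians, and P4ha1 and Plod3 lie closer to them on that side. Loxl2, Loxl3 and, by less, Plod1 lie to the right.

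The miR-200 family of microRNAs is known to be repressed by ZEB1, and the 3′ UTRs of the enzymes were searched for sites that match the seed, bases 2 to 8 of the microRNA. The mature sequences from RefSeq (GRCm38.p6) carry 2 seeds, shown in capitals:
miR-200a: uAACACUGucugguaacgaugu
miR-141: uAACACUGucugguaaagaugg
miR-200b: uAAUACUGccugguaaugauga
miR-200c: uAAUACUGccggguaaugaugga
miR-429: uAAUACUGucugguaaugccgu

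A 7-base match to the first seed (CAGTGTT) was present in the 3′ UTR of 18.9% of 11844 tested genes with an annotated 3′ UTR, and a match to the second (CAGTATT) in 14.5%. With either seed the share was 28.0% of those tested genes. Of the 10 enzymes 4 had a match, a count that includes Lox, which was not tested. These were Lox, Loxl2, P4ha1 and P4ha2, with 1 match each, and the other 6, including Loxl1, Loxl4 and Plod2, had none. The last 3 sites are shown with the match in capitals, because these genes have enough reads to be read against them. They were taken from the coding transcript of greatest length (GENCODE M21, GRCm38):
P4ha1, chr10:59372886-59372892, plus strand: aagaagatcagCAGTGTTaacccagggtcc
P4ha2, chr11:54131372-54131378, plus strand: attggaggagcCAGTGTTtgactgaattga
Loxl2, chr14:69695127-69695133, plus strand: taatatagggtCAGTATTcattttgcatat

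The site in P4ha1 is followed by an A and is thus the 8-base type. None of the genes with a site was called higher in 393P_ZEB1 cells: P4ha1 fell, P4ha2 and Loxl2 did not pass the threshold and Lox was not tested. As none of the 9 tested enzymes was called higher, with or without a site, these calls cannot tell genes with a site from the others. Of all tested features 18.3% were called higher, and an effect of the sites was not tested. RefSeq promoter windows, from 250 bases before to 50 bases after the start site, were matched for 5 enzymes (Loxl4, Plod1, Plod3, P4ha1 and P4ha2). None held CACCTG or its reverse complement CAGGTG, the E-box that ZEB1 binds, against 20.2% of all 32851 windows and 18.2% of the 12490 windows of tested genes. The letters are absent from these windows alone, and sites elsewhere were not searched.

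The enzymes work with chaperones, other hydroxylases and proteases, of which 24 were listed and 20 tested. In 393P_ZEB1 cells 6 were higher and 4 were lower, with a median log2 fold change of 0.21, beside 18.3% and 19.3% of all tested features. The share lower, 4 of 20, is thus near the background. Besides P4ha3, the largest rises were in Adamts3, a procollagen N-proteinase, Lepre1 and Fkbp10. Lepre1 (P3h1), the main prolyl 3-hydroxylase of fibrillar collagen, was at 21.8, 24.0 and 16.5 CPM in the vector samples and at 46.3, 42.5 and 46.9 CPM in the ZEB1 samples (log2 fold change 1.12, standard error 0.16, edgeR adjusted p = 0.00103). Its paralog Leprel2 (P3h3) had the opposite change, from 2.33, 2.35 and 1.9 CPM to 0.0561, 0.198 and 0.115 CPM, where it had 3, 11 and 7 counts (log2 fold change -4.13, standard error 0.37, edgeR adjusted p = 9.56e-05). Fkbp10, the prolyl isomerase that assists Plod2 in telopeptide hydroxylation, rose from 120 ± 18.3 to 242 ± 5.81 CPM (SD, n = 3; log2 fold change 1.01, standard error 0.13, edgeR adjusted p = 0.000701), while Plod2 itself fell. Adamts3 was scarce, at 0.148 ± 0.0196 and 0.378 ± 0.0973 CPM (SD, n = 3). It had 8 to 11 counts in the 393P_vector samples and passed the filter on low counts through the 393P_ZEB1 samples. Leprel2 passed it through the 393P_vector samples. With at least 10 counts required in every sample, 5 of the listed genes were higher and 3 lower, beside 2205 and 2215 of all tested features.

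The other genes that fell were Serpinh1, Bmp1 and Tmem38b. Serpinh1, the collagen chaperone HSP47, fell from 393 ± 16.7 to 299 ± 30.5 CPM (SD, n = 3; log2 fold change -0.39, standard error 0.11, edgeR adjusted p = 0.0266). Bmp1, the procollagen C-proteinase, which also cleaves the propeptide of lysyl oxidase, was at 133, 137 and 93.4 CPM in the vector samples and at 77.0, 77.2 and 78.2 CPM in the ZEB1 samples (log2 fold change -0.65, standard error 0.15, edgeR adjusted p = 0.0135). Tmem38b, a cation channel of the endoplasmic reticulum, fell by 0.71 on the log2 scale (edgeR adjusted p = 0.00986). Without 393P_vector replicate 3, 8 of these genes were higher and 4 lower, in a fit that called 26.2% of all tested features higher and 26.8% lower. Without 393P_ZEB1 replicate 3, 3 were higher and 2 lower, beside 13.1% and 12.6% of all tested features. Without 393P_ZEB1 replicate 1 or 2, 2 were lower in each case, beside 13% and 12.7%.

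**Figure D4:**
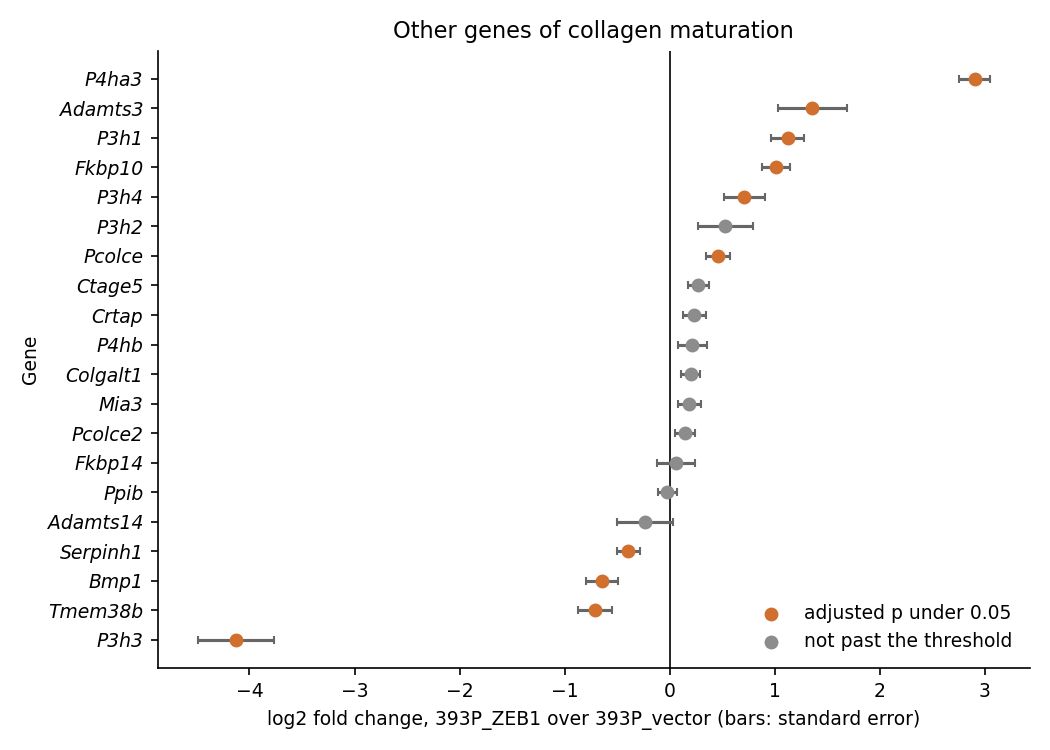
The log2 fold change of the 20 tested genes of collagen maturation outside the 10 enzymes, with bars for the standard error (orange, adjusted p under 0.05; grey, not past the threshold). P3h1, P3h3 and P3h4 are listed as Lepre1, Leprel2 and Leprel4 in the deposited tables. P4ha3 lies farthest to the right at 2.90 and P3h3 farthest to the left at -4.13.

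Of 13 substrates and scaffolds of the lysyl oxidases, 11 were tested, 3 rose and none was called lower by edgeR, with 1 lower at an unadjusted p under 0.05, beside the same 18.3% and 19.3% of all features. Col3a1, a fibrillar collagen chain, and Fbn1, the microfibril protein fibrillin, rose from 0.119 ± 0.05 to 1.6 ± 0.3 CPM and from 0.34 ± 0.161 to 3.85 ± 0.636 CPM (SD, n = 3), with log2 fold changes of 3.75 and 3.47 (edgeR adjusted p = 9.56e-05 and 0.000213). Col3a1 and Fbn1 had 5 to 10 and 9 to 39 counts in the 393P_vector samples and passed the filter on low counts through the 393P_ZEB1 samples. Fn1, fibronectin, rose from a high level, 2417 ± 174 to 3573 ± 175 CPM (SD, n = 3), with a log2 fold change of 0.56 (edgeR adjusted p = 0.00571). The 1 gene lower at an unadjusted p under 0.05 was Col1a1 (log2 fold change -1.24, standard error 0.42, edgeR adjusted p = 0.0507). Col1a1 was at 1.25, 1.09 and 0.457 CPM in the vector samples and at 0.467, 0.414 and 0.295 CPM in the ZEB1 samples. Some classical substrates were scarce in both lines: Col1a2 was at no more than 0.408 CPM and Eln at no more than 0.17 CPM in any sample. Col1a1, Col1a2 and Eln were picked out after their values were seen. Others of the list were abundant and not called. Col4a1, Col4a2 and Col5a1 had means of 930, 555 and 191 CPM in 393P_vector and 780, 373 and 155 CPM in 393P_ZEB1 cells, and were picked out likewise. Col4a1 was at 1100, 1193 and 497 CPM in the vector samples and at 842, 663 and 834 CPM in the ZEB1 samples. For Col4a2 the values were 648, 681 and 336 against 372, 342 and 405 CPM. For Col5a1 they were 223, 240 and 111 against 146, 149 and 170 CPM. In each of these genes 393P_vector replicates 1 and 2 were above every 393P_ZEB1 sample and replicate 3 was below every one. Of 6 genes for ascorbate and copper supply, 5 were tested and none was called (37.6% of all features were), although Slc23a2, an ascorbate transporter, was lower in all 393P_ZEB1 samples (log2 fold change -0.31, standard error 0.12, edgeR adjusted p = 0.0723; unadjusted p = 0.03, the only one of the 5 under 0.05). Atp7a, of the same list, was higher in all 393P_ZEB1 samples (log2 fold change 0.19, standard error 0.11, edgeR adjusted p = 0.209). The groups did not overlap for these 2 of the 5 genes, against 52.8% of all tested features. Slc23a2 and Atp7a were also picked out after their values were seen.

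P4ha1, P4ha2, Plod1, Plod2, Lox and Loxl2 are known targets of hypoxia-inducible factors (HIF), and 10 other genes often induced in hypoxia were listed beside them. Of the 9 tested, none was called higher by edgeR, also at an unadjusted p under 0.05, and 3 fell, beside 18.3% higher and 19.3% lower over all tested features. Ndrg1 fell from 105 ± 5.42 to 25.1 ± 0.931 CPM (SD, n = 3; log2 fold change -2.06, edgeR adjusted p = 4.89e-06). Vegfa, the angiogenic growth factor, and Slc2a1, the glucose transporter, fell by 0.73 and 0.60 on the log2 scale (edgeR adjusted p = 0.00205 and 0.00169). Pgk1, Ldha, Pdk1, Bnip3, Ankrd37 and Car9 did not pass the threshold. Of the 9 genes of the HIF pathway itself, 2 rose and 1 fell, again beside 18.3% and 19.3%. Epas1 rose from 0.277 ± 0.0227 to 1.13 ± 0.105 CPM (SD, n = 3) and Arnt from 90.5 ± 2.3 to 119 ± 4.86 CPM (SD, n = 3). P4htm, a transmembrane prolyl hydroxylase, fell from 0.871 ± 0.174 to 0.277 ± 0.181 CPM (SD, n = 3), and Hif1a, Vhl, the 3 Egln genes and Hif1an did not pass.

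Among 10104 features with a mean of at least 5 CPM, the genes nearest to an enzyme in their pattern over the 6 samples were found by the Euclidean distance of centred log2 CPM, which also compares the size of the change. For P4ha1 these were St13 and Ubr2 (distances 0.0328 and 0.0649), and for Plod2 they were Cldn12 and Smchd1 (0.0717 and 0.0862). Loxl4, with its wide replicate spread, had no neighbour closer than Uchl3 and Rpl41 (0.632 and 0.638), and Loxl1 none closer than Siglecg and Tgm2 (0.414 and 0.437).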

How the data were processed

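Total RNA of 6 samples of 393P cells (3 393P_vector, 3 393P_ZEB1) was sequenced with the SOLiD total RNA-Seq kit. For each sample the authors deposited unnormalized read counts for 24214 RefSeq features, with exon lengths, the number of exons with more than 10 reads, and RPKM, which the authors scaled by exon length and total reads. RPKM was checked against the counts and not used further. The files' coordinates match GRCm38. An aligner, a counting program and a test for these data are not given in the sources used here.

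Features were kept by edgeR's filterByExpr with a minimum count of 10, which left 13892, and were tested in R 4.3.3 with edgeR 4.0.16 (TMM, robust quasi-likelihood fit, condition as the sole term), which was tested on simulated data. Replicate ratios used 0.01 CPM as a pseudocount. Family sums and shares were compared by exact permutation of the samples. The Ctage5 row stood for Ctage5/Mia2. Alternatives used DESeq2 1.42.0 and limma 3.58.1 (voom with sample weights). Seed sites were searched with Python 3.11.15 in GENCODE M21. Alternatives also left out each sample in turn, changed the filter, threshold and scaling, and added the replicate number as a block.

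The enzymes and gene lists were chosen with earlier results of these data known. The genes named are the 10 enzymes, up to 4 called genes with the largest change per direction in each list, P4ha3, P4hb, Fkbp10, Serpinh1, Bmp1 and Zeb1, and the nearest 2 genes in pattern for each called enzyme. Other genes named fall outside this rule: markers of cell types, genes that overlap an enzyme, and listed genes that did not pass the threshold. Among the latter Col1a1, Col1a2, Eln, Col4a1, Col4a2, Col5a1, Slc23a2 and Atp7a were picked after their values were seen.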

Additional observations from a re-analysis of the deposited data

How the results depend on the processing

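Of 336 recomputed values of 28 results, 293 were classed as the same. For the fold change of an enzyme this meant the same direction and side of the threshold. For a number of calls it meant staying within 1.5 times of the main number, so a change from 2539 to 3700 higher calls was classed as the same. Values without an edgeR test had to move by less than the spread between replicates. The cause of the other shifts was not tested. No enzyme was called higher under any of 15 alternatives. The number called lower was 3 to 5, except in the test against a fold change of 1.5, where it was 2 and neither Plod2 (log2 fold change -0.64, edgeR adjusted p = 0.497) nor P4ha1 (-0.46, edgeR adjusted p = 1.0) passed. That test called 1118 of all 13892 features lower. The count of 3 came with at least 10 counts required in every sample, which left Loxl1 out and called 2215 features lower. The count of 5 came with limma voom, which called 4094 of 13892 features lower, and without 393P_vector replicate 3, where 26.8% were. Loxl4 passed in every fit, at log2 fold changes from -1.96 to -1.19. P4ha2 passed with limma voom (-0.314, adjusted p = 0.00654) and without 393P_vector replicate 3, and ranged from -0.36 to -0.16 with 1 sample left out. The limma voom fit used sample weights, 0.111 for 393P_vector replicate 3 against 3.02 and 1.43 for the other 393P_vector replicates. It therefore came near to leaving that sample out and is not a separate check of it.

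Loxl3 reversed with limma voom (-0.00447) and ranged from -0.0773 to 0.305 with 1 sample left out. Plod3 reversed with at least 10 counts in every sample (-0.00678) and with the replicate block (-0.00075), and ranged from -0.0467 to 0.0893 with 1 sample left out. Relative to the chromosome and then the 20 neighbours, the differences became 0.391 and 0.832 for Loxl2, -0.502 and -0.822 for Plod2, -0.168 and -0.161 for P4ha1, and -0.51 and -0.662 for P4ha2. Relative to the neighbours they became -3.55 for Loxl1 and 0.642 for Loxl3.

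Without scaling by length the share of Loxl1 fell by 0.578 points. With P4ha3 added, a choice made after seeing the data, the P4HA sum differed by -0.196 (log2), and the shares of P4ha1 and P4ha2 by -11.5 and -0.945 points. Other collagen maturation genes were called higher in 10 cases with limma voom, 3 at an adjusted p threshold of 0.01, 3 against a fold of 1.5 and 3 to 8 with 1 sample left out. They were called lower in 2, 1 and 2 to 4 cases at that threshold, against that fold and with 1 sample left out. Over all features, higher and lower calls numbered 3977 and 4094 with limma voom, 1584 and 1545 at 0.01, and 1081 and 1118 against a fold of 1.5, and lower calls 1784 to 3776 with 1 sample left out.

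The labels number replicates alike in both groups, but deviations from the group means correlated between same-numbered samples at r of 0.279, -0.205 and -0.0377, so samples were not paired. With the replicate block, calls numbered 2180 higher and 2256 lower, the called enzymes stayed called (Loxl1 -3.26, Loxl4 -1.64, Plod2 -0.64, P4ha1 -0.46) and no other enzyme was called. Depth limits Lox, with at most 11 counts in a sample, and Loxl1 in 393P_ZEB1 samples, with at most 7.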
